A study of Disanthus cercidifolius subsp. longipes with 9 samples.

Results

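Of 24385 transcript clusters in the deposited table of *Disanthus cercidifolius* var. *longipes* leaves, 164 carried the name of an enzyme or protein that loosens, remodels or builds the plant cell wall, and these 164 members are described here. A cluster was taken as a member when its first Swiss-Prot name contained expansin, xyloglucan endotransglucosylase, pectinesterase, polygalacturonase, pectate lyase, cellulose synthase or fasciclin-like arabinogalactan, so each cluster was picked by its name and not by its expression, although this set of names was itself chosen with earlier results of these data known. The names are those of the best matching protein of another plant, mostly *Arabidopsis thaliana*. The study sequenced leaf mRNA at 3 developmental stages named F1, F2 and F3 (3 libraries each) to follow leaf growth and development.

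F1 were young unfolded leaves, F2 leaves that had just reached full area and F3 mature leaves. All came from nursery plants of the same variety, and no genotype or treatment is given for any stage. The labels date the stages a few days apart in July, whereas the study's methods place them about a month apart from spring to early summer, so stage and season cannot be told apart. Leaves were taken from 3 trees, and the sources do not say which tree gave which library, so the p-values below measure the spread between these libraries. The table holds only clusters that the authors called different in at least 1 comparison. Wall genes that did not change are therefore missing from it, and every share of members is read against the same share over the 24385 clusters.

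A growing plant cell is held by a wall of cellulose microfibrils tied by xyloglucan and set in pectin. Expansins loosen the contacts between these polymers without cutting them, and xyloglucan endotransglucosylase/hydrolases (XTHs) cut and rejoin xyloglucan. Pectinesterases strip methyl groups from pectin, which lets it stiffen or opens it to cutting by polygalacturonases and pectate lyases, and pectinesterase inhibitors hold that step back. Cellulose synthase A (CesA) subunits spin cellulose at the plasma membrane, the related cellulose synthase-like (CSL) proteins make other products, and fasciclin-like arabinogalactan proteins (FLAs) are glycoproteins of the cell surface.

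The summed level of the wall genes was highest in the young leaf. Their FPKM, the fragment count scaled for transcript length and library size, summed to 5887, 5808 and 5892 at F1, 3164, 3127 and 3149 at F2 and 1330, 1356 and 1442 at F3. Libraries of different stages did not overlap, and no test was made of these or later sums. The FPKM of all 24385 clusters also declined, with mean sums of 450614 at F1, 417568 at F2 and 327758 at F3. That was 1.37-fold lower at F3 than at F1, beside 4.26-fold for the members. Fewer cells of a type and less RNA per cell cannot be told apart in whole leaves. Members held 1.57 to 1.61% of all counts of the table at F1, 0.874 to 0.885% at F2 and 0.543 to 0.569% at F3. Mean FPKM was highest at F1 for 98 members (59.8%, against 30.3% of all clusters), at F2 for 39 and at F3 for 27 (16.5%, against 41.1% of all clusters).

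Each pair of stages was compared with edgeR's quasi-likelihood test, and a member was taken as changed at a Benjamini-Hochberg adjusted p under 0.05 over all clusters together with a fold change of 2 or more. At F2 against F1, 22 members rose and 73 fell, or 13.4% and 44.5% of the members, where 40.8% of all clusters passed, 22.0% as higher and 18.8% as lower. At F3 against F2, 24 members rose and 90 fell (14.6% and 54.9%), where 65.3% of all clusters passed, 29.5% as higher and 35.8% as lower. At F3 against F1, 23 rose and 103 fell (14.0% and 62.8%), where 69.7% of all clusters passed, 35.0% as higher and 34.7% as lower. The median log2 fold change of the members was −0.89, −1.38 and −2.02 in these comparisons, and that of all clusters was 0.17, −0.37 and 0.00. With stages at 0 counts set to a floor of 3 counts per library, the members' medians were −0.89, −1.18 and −2.01.

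Libraries of the later and the earlier stage did not overlap in FPKM for 130 of the 164 members at F2 against F1, 132 at F3 against F2 and 139 at F3 against F1, where 64.4%, 78.9% and 81.0% of all clusters did not overlap. The share of members was above that of all clusters at F2 against F1 and near it in the other 2 comparisons. Of the 164 members, 43 fell in both steps (26.2%, against 6.03% of all clusters) and 3 rose in both (1.83%, against 3.54%). A further 12 rose at F2 and fell at F3 (7.32%, against 7.94%), 9 fell at F2 and rose at F3 (5.49%, against 5.34%) and 22 passed in neither step (13.4%, against 16.7%), so these shares lay near those of all clusters. There were 10 members that passed in no comparison (6.1%, against 6.41%). A mean of 1 FPKM in some stage was reached by 155 members and 10 FPKM by 78 (47.6%, against 27.0% of all clusters). At F3, 19 members had 0 counts in all 3 libraries (11.6%, against 6.35% of all clusters), and this held for 8 at F2 and 4 at F1.

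Markers of several cell types also differed between stages. At F3 against F1, 34.7% of all clusters fell and 35.0% rose. Of 59 clusters listed for dividing cells by the names of cyclins, histones H3 and H4 and the kinesin KIN-12, 40 fell and 8 rose at F3 against F1 (67.8% and 13.6%). The list also took in 26 clusters that do not mark division, such as inhibitors of cyclin-dependent kinases and histone H3.3. The other 33, set apart after the values were seen, summed to 761 to 896 FPKM at F1, 205 to 213 FPKM at F2 and 277 to 285 FPKM at F3, so their sum was lowest at F2 while the wall gene sum was lowest at F3. Of the 33, 26 fell and 2 rose at F2 against F1 (78.8% and 6.06%, against 18.8% and 22.0% of all clusters). In the comparison of F3 with F1, 25 fell and 2 rose (75.8% and 6.06%). Most single clusters did not follow the course of the sum from F2 to F3. At F3 against F2, 12 of the 33 fell and 5 rose (36.4% and 15.2%, against 35.8% and 29.5% of all clusters), with a median log2 fold change of −0.97. Abundant histone H4 clusters weighed on the sum, such as Cluster-34162.0 with means of 103 FPKM at F2 and 115 at F3. Of 28 clusters for xylem and secondary wall, 21 fell and 1 rose, with sums of 52.5 to 56.4 FPKM at F3 against 240 to 250 at F1. Of 85 clusters for leaf mesophyll, 18 rose and 9 fell at F2 against F1 (21.2% higher, near the 22.0% of all clusters), 5 rose and 72 fell at F3 against F2 (84.7% lower, against 35.8% of all clusters), and 3 rose and 60 fell at F3 against F1 (70.6% lower). The mesophyll sum averaged 93018 FPKM at F1, 128471 at F2 and 44437 at F3, so the defining genes of leaf tissue were abundant at every stage. At F3 against F1, 6 of 7 clusters listed for the guard cell lineage fell and 1 rose, with sums of 4.68 to 6.62 FPKM at F3 against 45.2 to 48.9 at F1. Apart from FAMA (Cluster-43263.0, means of 9.97 FPKM at F1 and 0.173 at F3), these bear names of EPIDERMAL PATTERNING FACTOR-like proteins, which need not mark guard cells. Such a protein, number 9 (Cluster-34476.0), alone averaged 26.0 FPKM at F1. In trichome and epidermis, 4 of 5 clusters fell and 1 rose at F3 against F1. Of 9 for pollen and flower 4 fell and 3 rose (44.4% and 33.3%), and of 17 for root 8 fell and 4 rose (47.1% and 23.5%). The shares of these last lists lay nearer to those of all clusters than the shares of the lists above. The part of these cell types in the wall gene values was not tested.

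**Figure D1:**
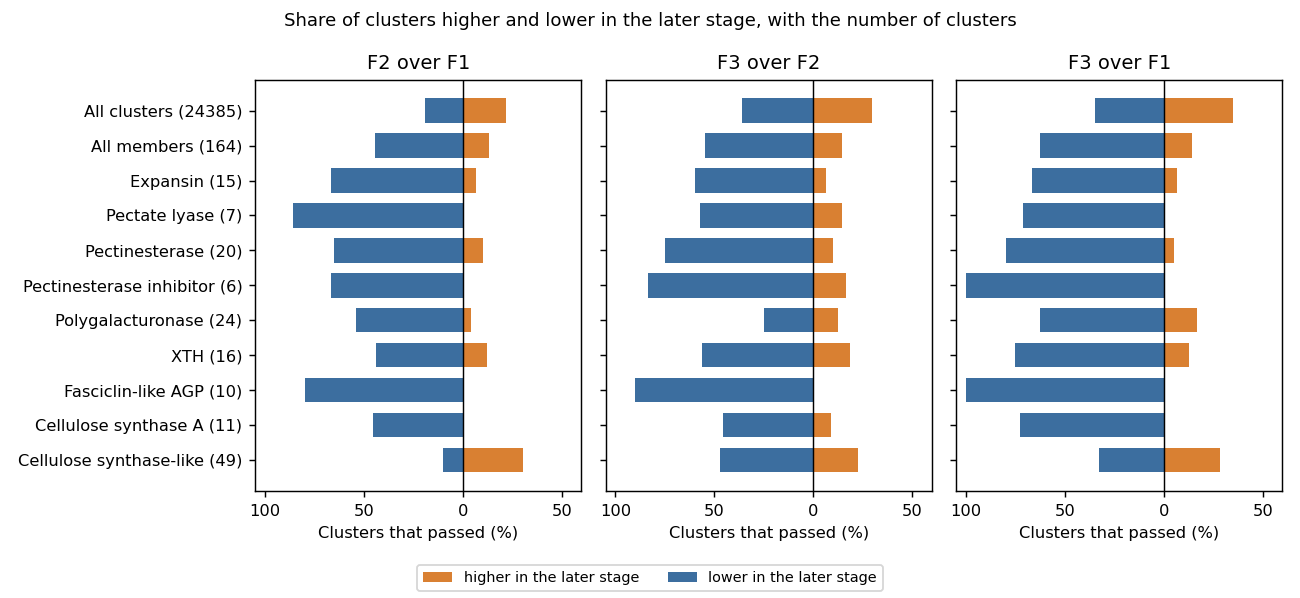
Share of clusters that passed the test, in percent, higher (right, orange) or lower (left, blue) in the later stage, for all 24385 clusters, the 164 members and each family, with the number of clusters in parentheses. In each panel the members' blue bar is longer than that of all clusters, and the cellulose synthase-like family is the one whose orange bar is longer than its blue bar at F2 over F1 (15 against 5 members, but 8 against 10 when clusters of one number were summed).

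The families did not decline alike. Expansins summed to 2000.04 ± 46.2 FPKM at F1, 494 ± 10.7 FPKM at F2 and 34.6 ± 0.857 FPKM at F3 (SD, n = 3 here and for the sums below). Pectate lyases summed to 261 ± 1.07 FPKM at F1, 26.1 ± 2.87 FPKM at F2 and 5.21 ± 0.356 FPKM at F3, and pectinesterases with their inhibitors to 635 ± 20.1 FPKM at F1, 227 ± 4.68 FPKM at F2 and 28.99 ± 1.69 FPKM at F3. FLAs summed to 359 ± 10.8 FPKM at F1, 125 ± 2.53 FPKM at F2 and 27.9 ± 0.513 FPKM at F3, and polygalacturonases with their inhibitors and beta subunit to 190.00 ± 2.48 FPKM at F1, 61.3 ± 4.69 FPKM at F2 and 39.5 ± 1.31 FPKM at F3. These families were therefore lower at F3 than at F1 by 57.8-fold for expansins, 50.1-fold for pectate lyases, 21.9-fold for pectinesterases, 12.9-fold for FLAs and 4.81-fold for polygalacturonases. The sum of all clusters was 1.37-fold lower.

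The sums of XTHs and cellulose synthases differed less between stages. XTHs summed to 1352 ± 20.6 FPKM at F1, 1118 ± 15.7 FPKM at F2 and 489 ± 1.27 FPKM at F3, a difference of 2.76-fold at F3 against F1. That ratio depended on the 2 most abundant members, XTH6 and XTH28, which went opposite ways. XTH6 made up 13.5% of the summed wall FPKM at F1 and 0.814% at F3, and XTH28 3.67% and 29.2%. The small difference of the family thus rested on XTH28, whose level was higher at F3 than at F1. A ratio without XTH28 alone was not computed. Without both, the other 14 XTHs summed to 346 ± 19.5 FPKM at F1, 159 ± 3.53 FPKM at F2 and 76.8 ± 4.40 FPKM at F3, or 4.50-fold lower at F3 than at F1. CesA subunits summed to 182 ± 11.2 FPKM at F1, 103 ± 5.39 FPKM at F2 and 80.5 ± 6.77 FPKM at F3, or 2.26-fold lower at F3 than at F1. The CSL proteins summed to 863 ± 62.5 FPKM at F1, 970.3 ± 25.2 FPKM at F2 and 657 ± 52.7 FPKM at F3, and were the one of these groups with its highest sum at F2. The CSL sum was 1.31-fold lower at F3 than at F1, near the 1.37-fold of all clusters. The make-up of the summed wall FPKM shifted accordingly. Expansins held 34.1% of it at F1, 15.7% at F2 and 2.52% at F3, whereas CSL proteins held 14.7%, 30.8% and 47.7% and XTHs 23.1%, 35.5% and 35.6%.

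**Figure D2:**
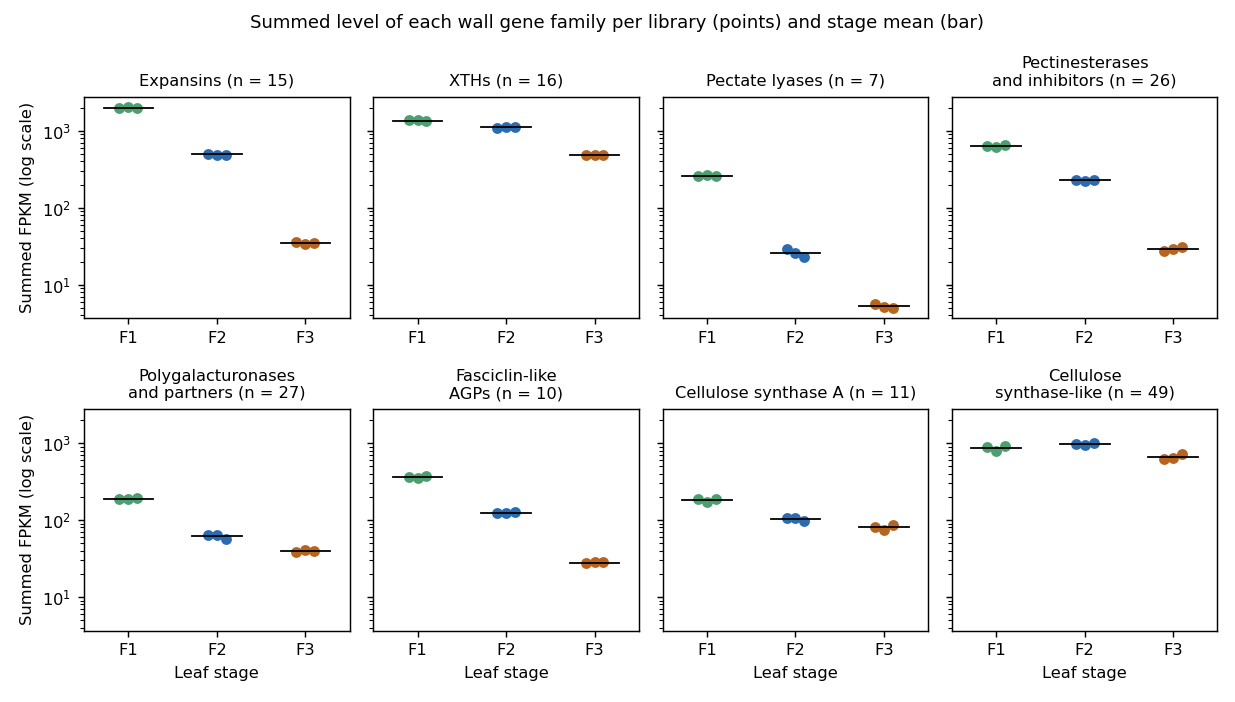
Summed FPKM (log scale) of each family in every library (points), by leaf stage from F1 to F3, where bars mark the stage mean. Points of one stage lie close together, and every family but the cellulose synthase-like proteins is ordered F1, F2, F3 from high to low.

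Expansins had the largest ratio between their F1 and F3 sums of the 7 families, though not the lowest median fold change, and the rank rested on 2 clusters. Without the 2 most abundant members of each family, an alternative added after the values were seen, the ratio was 6.50 for expansins, below 20.97 for pectate lyases, 14.1 for FLAs and 11.5 for pectinesterases. Of the 15 members, 10 fell and 1 rose at F2 against F1, 9 fell and 1 rose at F3 against F2, and 10 fell and 1 rose at F3 against F1. The median log2 fold change was −1.73, −1.88 and −3.36. The annotation columns gave the protein domain of the family for all 15, and for 141 of the 164 members.

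The most abundant of all 164 members was Cluster-47986.0, matched to expansin A1. It had 1243, 1331 and 1237 FPKM at F1, 334, 334 and 329.8 FPKM at F2 and 5.48, 4.6 and 4.54 FPKM at F3. Each stage lay far below the one before it, and the single cluster made up 21.7% of the summed wall FPKM at F1 and 0.355% at F3. Its log2 fold change was −1.90 ± 0.06 (SE) at F2 against F1, −6.25 ± 0.08 at F3 against F2 and −8.15 ± 0.08 at F3 against F1, a 284-fold lower level (edgeR, adjusted p = 6.93e-11). Cluster-46520.0, matched to expansin A8, followed with 548, 542 and 555 FPKM at F1, 132, 118 and 116 FPKM at F2 and 1.99, 1.64 and 1.91 FPKM at F3, 325-fold lower at F3 than at F1 (log2 −8.34 ± 0.09). These 2 clusters did not set the direction of the family alone, since the sum of the other 13 was 181 ± 3.17 FPKM at F1, 39.8 ± 0.488 FPKM at F2 and 27.9 ± 0.299 FPKM at F3.

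Expansin A4 (Cluster-29897.0) had 41.4, 39.5 and 39.03 FPKM at F1, 7.48, 6.63 and 6.07 FPKM at F2 and 2.92, 2.83 and 2.68 FPKM at F3. It fell in both steps, by a log2 fold change of −2.52 ± 0.12 at F2 against F1 and −1.42 ± 0.13 at F3 against F2. Expansin B16 (Cluster-39776.0), of the beta-expansin group best known from grass pollen and grass walls, had 41.1, 39.8 and 37.8 FPKM at F1, 0.39, 0.76 and 0.52 FPKM at F2 and 0, 0.09 and 0.11 FPKM at F3. Nearly all of its decline came early, with a log2 fold change of −6.07 ± 0.30 at F2 against F1 (edgeR, adjusted p = 6.18e-07).

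A few expansins went another way. Both members matched to expansin A15 did, and they are named here after their values were seen. Cluster-47642.0 had 2.57, 1.8 and 2.15 FPKM at F1, 0.42, 0.26 and 0.22 FPKM at F2 and 8.19, 6.97 and 7.14 FPKM at F3, lower at F2 than at F1 (log2 −2.84 ± 0.31) and then higher at F3 than at F2 (log2 4.52 ± 0.32). Cluster-32055.0 had 0.61, 1.01 and 1.12 FPKM at F1, 4.9, 5.09 and 5.71 FPKM at F2 and 1.5, 1.67 and 1.6 FPKM at F3, with its peak at F2. The 2 clusters matched to one reference protein thus peaked at different stages, both at a low level.

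Pectate lyases cut pectin that has lost its methyl groups. Of 7 members, 6 fell and 0 rose at F2 against F1 (median log2 −3.62), 4 fell and 1 rose at F3 against F2, and 5 fell and 0 rose at F3 against F1 (median −5.71, or −4.39 with the floor for stages at 0 counts). In these comparisons 85.7%, 57.1% and 71.4% of the members fell, against 18.8%, 35.8% and 34.7% of all clusters. All 7 had their highest mean at F1. Pectate lyase 5 (Cluster-37069.0) had 116, 112 and 119 FPKM at F1, 16.6, 14.8 and 12.7 FPKM at F2 and 0.06, 0.26 and 0.37 FPKM at F3. That was 7.57-fold lower at F2 than at F1 and 557-fold lower at F3 than at F1 (log2 −9.12 ± 0.28, edgeR, adjusted p = 7.91e-09).

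A second cluster matched to pectate lyase 5, Cluster-28872.1, had 70.98, 77.1 and 71.5 FPKM at F1, 5.65, 4.22 and 3.47 FPKM at F2 and 2.29, 1.12 and 1.15 FPKM at F3, with a log2 fold change of −3.99 ± 0.25 at F2 against F1 and −1.72 ± 0.27 at F3 against F2. Clusters share the number before the point where the assembly placed them together. Summed with the other cluster of its number, its level was 74.3 FPKM at F1, 4.54 at F2 and 2.21 at F3. Pectate lyase 8 (Cluster-32879.0) had 67.2, 65.2 and 61.2 FPKM at F1, 4.34, 4.91 and 4.93 FPKM at F2 and 0.52, 0.52 and 0.82 FPKM at F3, and fell in both steps (log2 −3.73 ± 0.13 and −3.09 ± 0.16). All 3 abundant pectate lyases had thus lost most of their level by F2, and none overlapped between stages.

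Pectinesterases fell in most members. Of 26 members with their inhibitors, 17 fell and 2 rose at F2 against F1, 20 fell and 3 rose at F3 against F2, and 22 fell and 1 rose at F3 against F1. The shares that fell were 65.4%, 76.9% and 84.6%, against 18.8%, 35.8% and 34.7% of all clusters. The median log2 fold change was −1.74, −2.73 and −5.85, and −1.74, −1.68 and −3.79 with the floor. Pectinesterase 1 (Cluster-29510.0) had 151, 143 and 157 FPKM at F1, 26.1, 25.2 and 25.4 FPKM at F2 and 0.52, 0.65 and 0.75 FPKM at F3. Its level at F3 was 257-fold lower than at F1 (log2 −8.00 ± 0.11, edgeR, adjusted p = 1.64e-10). Pectinesterase 34 (Cluster-32224.0), one of the many pectinesterases made with an inhibitor-like leader domain, had 90.2, 72.5 and 93.4 FPKM at F1, 24.4, 23.6 and 24.5 FPKM at F2 and 0.81, 1.47 and 0.84 FPKM at F3, with log2 fold changes of −1.78 ± 0.16 at F2 against F1 and −4.68 ± 0.21 at F3 against F2.

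Pectinesterase 54 (Cluster-30398.7) had 13.4, 11.3 and 12.3 FPKM at F1 and 1.02, 0.79 and 0.36 FPKM at F2, and 0 counts in every F3 library. Against a floor of 3 counts per library, which like the intervals below covers counting error only, it was at least 185-fold lower at F3 than at F1 and at least 10.99-fold lower at F3 than at F2. It is the only member among 7 clusters of its number, and their sum was 126 FPKM at F1, 53.6 at F2 and 94.4 at F3, so the sum of the number did not follow this cluster. The one pectinesterase higher at F3 than at F1 was pectinesterase 2 (Cluster-3030.0, named after its values were seen), with 0, 0 and 0 FPKM at F1, 0.05, 0.33 and 0 FPKM at F2 and 3.78, 2.96 and 3.83 FPKM at F3, at least 42.6-fold higher at F3 than at F1.

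The inhibitors fell as well. All 6 pectinesterase inhibitors were lower at F3 than at F1, and their sum was 242 ± 5.06 FPKM at F1, 109 ± 3.97 FPKM at F2 and 3.25 ± 0.238 FPKM at F3, a 74.4-fold difference of F3 against F1, beside 15.3-fold for the 20 pectinesterases. Inhibitor 10 (Cluster-36861.0) had 167, 177 and 164 FPKM at F1, 84.2, 79.2 and 81.1 FPKM at F2 and 0.71, 0.46 and 1.38 FPKM at F3. Its step at F2 against F1 stood at the threshold, with a log2 fold change of −1.01 ± 0.15 that became −0.95 without F1 replicate 2, −0.99 without F2 replicate 2 and −0.89 when both clusters of its number were summed. Its step at F3 against F2 was −6.78 ± 0.23 (edgeR, adjusted p = 1.95e-08). The other cluster of that number, Cluster-36861.1, had 20.1, 17.9 and 18.6 FPKM at F1, 14.6, 13.3 and 14.3 FPKM at F2 and 0.38, 0 and 0.11 FPKM at F3, which did not pass at F2 against F1 (log2 −0.37 ± 0.33, edgeR, adjusted p = 0.366). Together they summed to 188 FPKM at F1, 95.6 at F2 and 1.01 at F3. Inhibitor 3 (Cluster-35026.0) had 20.1, 19.3 and 19.4 FPKM at F1, 0.88, 0.8 and 0.83 FPKM at F2 and 0, 0.18 and 0.22 FPKM at F3, so that its loss came mostly at F2 (log2 −4.49 ± 0.41), unlike that of inhibitor 10.

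Polygalacturonases cut the pectin backbone. Of 27 members, among them 24 enzymes, 2 inhibitors and 1 beta subunit, 15 fell and 1 rose at F2 against F1, 9 fell and 3 rose at F3 against F2, and 18 fell and 4 rose at F3 against F1. The share that fell was 55.6% in the first step, against 18.8% of all clusters, and 33.3% in the second, close to the 35.8% of all clusters. At F3 against F1 it was 66.7%, against 34.7% of all clusters. The median log2 fold change was −1.48, −0.68 and −3.34. Of the 24 enzymes alone, 6 fell and 3 rose at F3 against F2 (25% and 12.5%, against 35.8% and 29.5% of all clusters). The sum of the enzymes was 3.74-fold lower at F3 than at F1. The most abundant enzyme, Cluster-25797.0, had 41.3, 39.7 and 41.03 FPKM at F1, 16.1, 15.2 and 14.1 FPKM at F2 and 11, 11.4 and 11.1 FPKM at F3, a log2 fold change of −1.33 ± 0.07 at F2 against F1 and −0.68 ± 0.07 at F3 against F2, of which only the first reached 2-fold. Cluster-48670.0, matched to the same grapevine protein, had 31.5, 34.9 and 31.6 FPKM at F1, 15.3, 15.8 and 12.8 FPKM at F2 and 3.66, 3.44 and 3.08 FPKM at F3, and passed in both steps (log2 −1.12 ± 0.10 and −2.21 ± 0.11).

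The cluster matched to the polygalacturonase of the *Arabidopsis* gene At1g48100, Cluster-51684.2, had 17.5, 17.1 and 18.8 FPKM at F1 and 0.46, 0.51 and 0.65 FPKM at F2, and 0 counts in every F3 library. It was 33.1-fold lower at F2 than at F1 and at least 314-fold lower at F3 than at F1. The 5 clusters of its number, all with this name, summed to 26.8 FPKM at F1, 3.39 at F2 and 0.187 at F3. A non-catalytic beta subunit (Cluster-14277.0), a wall protein known from ripening tomato fruit, had 43.6, 40.6 and 44.9 FPKM at F1, 4.46, 4.95 and 3.95 FPKM at F2 and 0.02, 0.02 and 0.05 FPKM at F3. Its log2 fold change was −3.22 ± 0.10 at F2 against F1 and −7.36 ± 0.20 at F3 against F2, the last from 4 counts over the F3 libraries.

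**Figure D3:**
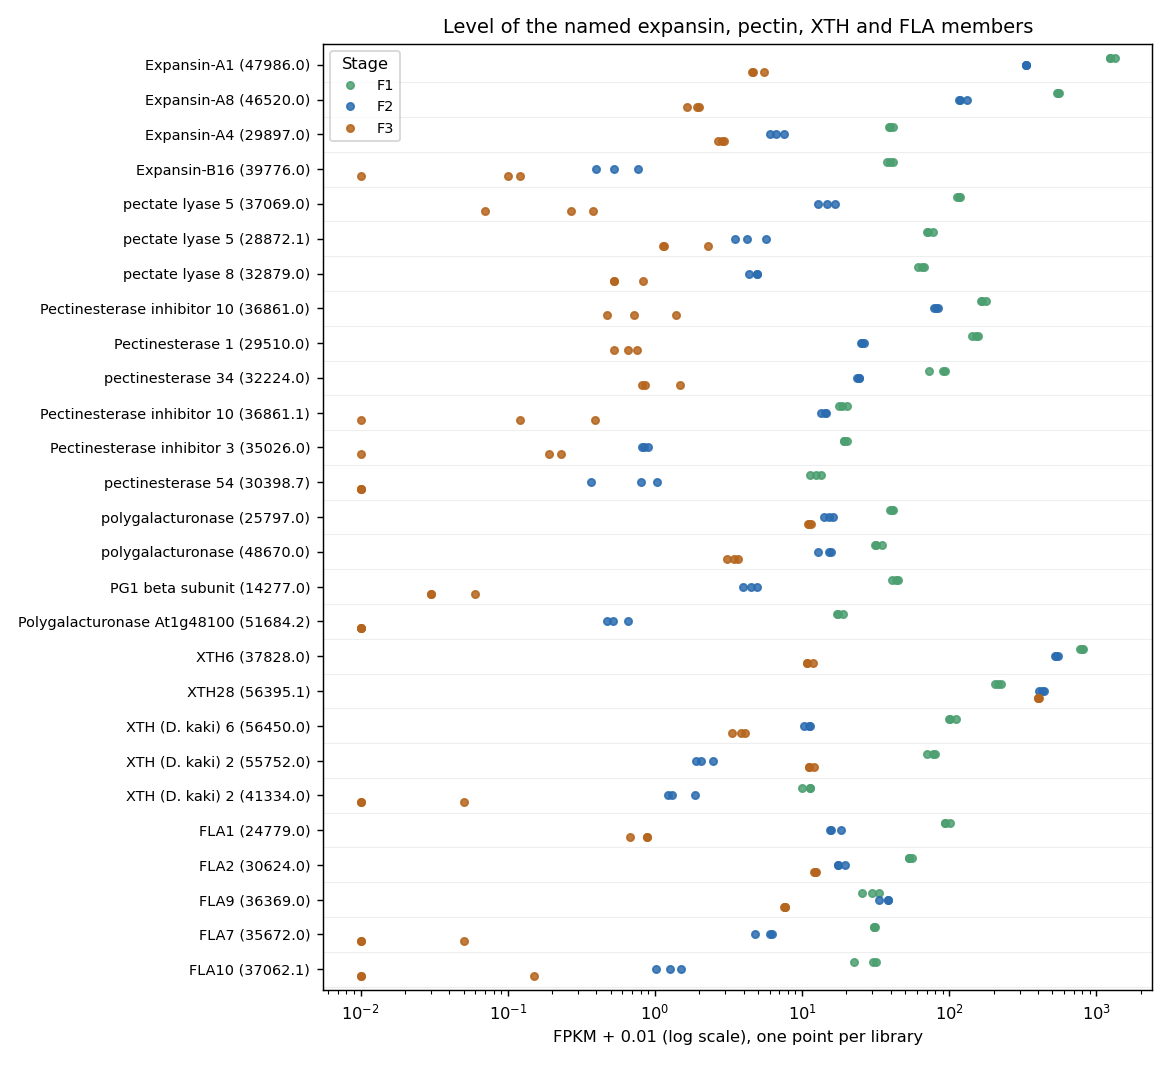
FPKM + 0.01 (log scale) of the named expansin, pectin, XTH and FLA members, one point per library and one colour per stage (F1 green, F2 blue, F3 brown), so that a library at 0 stands at 0.01. Most rows run from high at F1 (right) to low at F3 (left), while XTH28 lies between 205 and 442 FPKM in all libraries and XTH2 of Cluster-55752.0 has its lowest points at F2.

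XTHs split into members that were lost and members that stayed. Of 16 members, 7 fell and 2 rose at F2 against F1, 9 fell and 3 rose at F3 against F2, and 12 fell and 2 rose at F3 against F1 (median log2 −0.85, −1.35 and −3.06). In these comparisons 43.75%, 56.25% and 75% of the XTHs fell, against 18.8%, 35.8% and 34.7% of all clusters. XTH6 (Cluster-37828.0) was the most abundant, with 807, 793 and 773 FPKM at F1, 532, 544 and 527 FPKM at F2 and 10.8, 11.9 and 10.8 FPKM at F3. Unlike the expansins it kept most of its level at F2, where the log2 fold change was −0.52 ± 0.06 and did not reach 2-fold, and then fell by 5.73 on the log2 scale at F3 against F2 (SE 0.08, edgeR, adjusted p = 2.04e-10).

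XTH28 (Cluster-56395.1), studied in *Arabidopsis* for the growth of stamen filaments, had 215, 205 and 224 FPKM at F1, 409, 424 and 442 FPKM at F2 and 398, 398 and 407 FPKM at F3. Its F2 and F3 libraries lay above all F1 libraries. It was 2.04-fold higher at F2 than at F1 (log2 1.03 ± 0.04, edgeR, adjusted p = 2.23e-07), just past the threshold, and the fold change dropped below 2 under RLE scaling (log2 0.86), DESeq2 (0.86), limma on FPKM, a fit of the F1 and F2 libraries alone (0.98), library sizes implied by FPKM, and without F2 replicate 3 (1.00), F3 replicate 1 (0.98) or F3 replicate 3 (0.98). At F3 against F1 it was 1.72-fold higher (log2 0.78 ± 0.04), short of the threshold. As the other members declined, its share of the summed wall FPKM was 3.67% at F1, 13.5% at F2 and 29.2% at F3. With the other cluster of its number, matched to XTH27, it summed to 215 FPKM at F1, 425 at F2 and 403 at F3.

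A further 3 XTHs matched proteins of persimmon fruit. XTH6 of persimmon (Cluster-56450.0) had 100.3, 111 and 98.99 FPKM at F1, 11.3, 11.1 and 10.3 FPKM at F2 and 3.34, 4.08 and 3.86 FPKM at F3, and fell in both steps (log2 −3.19 ± 0.11 and −1.63 ± 0.12). XTH2 of persimmon was the match of 2 clusters with unlike courses. Cluster-55752.0 had 76.9, 79.4 and 70.6 FPKM at F1, 2.04, 2.45 and 1.89 FPKM at F2 and 11.2, 12.02 and 11.1 FPKM at F3, 34.6-fold lower at F2 than at F1 and then 4.77-fold higher at F3 than at F2 (log2 2.25 ± 0.12, edgeR, adjusted p = 4.60e-07).

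Cluster-41334.0, the other match, had 11.3, 11.4 and 10.04 FPKM at F1, 1.87, 1.3 and 1.22 FPKM at F2 and 0, 0 and 0.04 FPKM at F3, with 1 count over the F3 libraries, so that F1 exceeded F3 by a ratio of 933 (95% exact interval 167 to 36876). XTH30 (Cluster-31350.0, named after its values were seen) peaked at F2, with 22.3, 24.5 and 21.1 FPKM at F1, 60.99, 65.4 and 58.5 FPKM at F2 and 35.1, 33.7 and 30.4 FPKM at F3, higher at F2 than at F1 (log2 1.50 ± 0.09) and lower at F3 than at F2 (log2 −1.06 ± 0.09).

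FLAs were the one of the 7 families in which every member passed as lower at F3 against F1. Of 10 members, 8 fell and 0 rose at F2 against F1, 9 fell and 0 rose at F3 against F2, and 10 fell at F3 against F1 (median log2 −1.53, −4.76 and −6.73). The shares that fell were 80%, 90% and 100%, against 18.8%, 35.8% and 34.7% of all clusters. FLA1 (Cluster-24779.0) had 94.1, 101 and 92.9 FPKM at F1, 18.3, 15.6 and 15.6 FPKM at F2 and 0.67, 0.87 and 0.87 FPKM at F3, 129.7-fold lower at F3 than at F1 (log2 −7.02 ± 0.14, edgeR, adjusted p = 7.92e-10). FLA2 (Cluster-30624.0) had 55.4, 53.1 and 53.3 FPKM at F1, 17.5, 17.6 and 19.5 FPKM at F2 and 12.5, 12.04 and 12.2 FPKM at F3 and lost most of its level in the first step (log2 −1.52 ± 0.07), while its second step did not reach 2-fold (log2 −0.74 ± 0.07).

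FLA9 (Cluster-36369.0) was the one FLA with its highest mean at F2. It had 29.9, 25.6 and 33.3 FPKM at F1, 33.4, 38.1 and 38.3 FPKM at F2 and 7.58, 7.54 and 7.69 FPKM at F3, a log2 fold change of 0.36 ± 0.10 at F2 against F1, which did not reach 2-fold, and of −2.43 ± 0.10 at F3 against F2. FLA7 (Cluster-35672.0) had 31.3, 30.7 and 30.7 FPKM at F1, 6.24, 4.74 and 6.01 FPKM at F2 and 0, 0.04 and 0 FPKM at F3, with 1 count over the F3 libraries, so that F1 exceeded F3 by a ratio of 2629.9 (95% exact interval 472 to 103918). FLA10 (Cluster-37062.1) had 30.1, 22.7 and 31.9 FPKM at F1, 1.5, 1.25 and 1 FPKM at F2 and 0, 0 and 0.14 FPKM at F3, and had lost most of its level by F2 (log2 −4.45 ± 0.35). Its number holds 1 further cluster, and their sum was 30.5 FPKM at F1, 4.31 at F2 and 1.24 at F3. Both members matched to FLA11, a protein of *Arabidopsis* stem fibres and vessels, passed as lower in both steps.

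**Figure D4:**
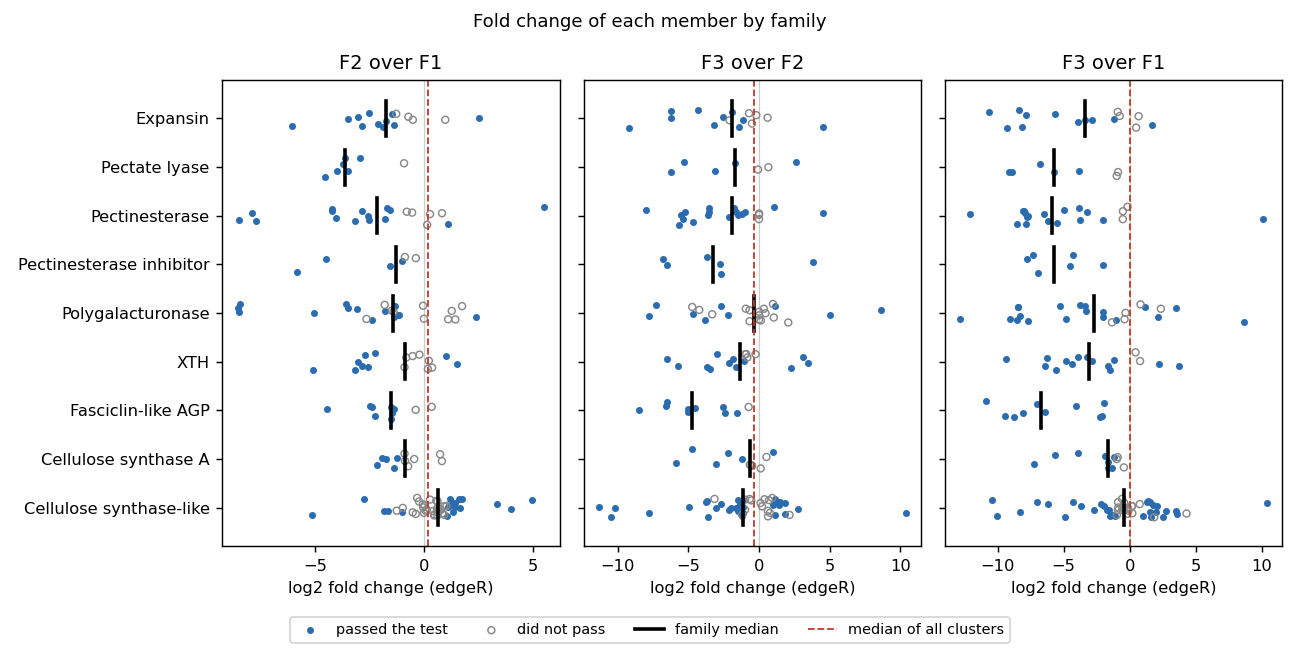
edgeR log2 fold change of the members (points, filled where the test was passed) by family, without 2 polygalacturonase inhibitors, 1 beta subunit and 3 cellulose synthase interactive proteins, for F2 over F1, F3 over F2 and F3 over F1, with the family median (black bar) and the median of all 24385 clusters (dashed red line). Family medians lie left of the dashed line, except those of the cellulose synthase-like proteins at F2 over F1 and of the 24 polygalacturonase enzymes at F3 over F2, which is close to it (−0.34 against −0.37).

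CesA subunits declined moderately. Of 11 members, 5 fell and 0 rose at F2 against F1, 5 fell and 1 rose at F3 against F2, and 8 fell and 0 rose at F3 against F1 (median log2 −0.89, −0.65 and −1.61). In these comparisons 45.5%, 45.5% and 72.7% of the CesA members fell, against 18.8%, 35.8% and 34.7% of all clusters. The share at F3 against F2 was thus the nearest to that of all clusters. Subunits are known in distinct groups, one for the primary walls of growing cells and one for the secondary walls of xylem and fibres. The 3 members matched to secondary wall subunits, CESA4 and CESA8 of *Arabidopsis* and CESA9 of rice, summed to 23.7 ± 2.52 FPKM at F1, 11.4 ± 1.50 FPKM at F2 and 0.82 ± 0.203 FPKM at F3. The other 8 summed to 158 ± 8.70 FPKM at F1, 91.4 ± 5.22 FPKM at F2 and 79.7 ± 6.74 FPKM at F3. Most of that sum came from 4 clusters, and the remaining 4, which matched CESA2 and CESA6 of *Arabidopsis* and CESA2 and CESA8 of rice, averaged 0.827, 0.903, 0.857 and 0.213 FPKM at F3, also near 0, with 0.52 to 2.83 FPKM at F1. The xylem markers named above were also lower at F3 than at F1 in 21 of 28 clusters, and their part in this difference was not tested.

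The most abundant CesA clusters, named after their values were seen, shared the number Cluster-34231 and matched CESA5 and CESA3 of rice. Cluster-34231.1 had 76.7, 71.7 and 81.1 FPKM at F1, 54.03, 57.7 and 49.5 FPKM at F2 and 44.3, 36.8 and 47.05 FPKM at F3, with a log2 fold change of −0.98 ± 0.06 at F3 against F1 that did not reach 2-fold. Of the 3 clusters named cellulose synthase interactive, a group that links the synthase to microtubules, Cluster-48921.0 had 20.6, 16.01 and 22.1 FPKM at F1, 17.99, 19.3 and 19.1 FPKM at F2 and 7.58, 7.63 and 8.3 FPKM at F3 and was lower at F3 than at F2 (log2 −1.43 ± 0.10), and Cluster-44760.0 had 0 counts at F1, 1.5, 1.91 and 2.09 FPKM at F2 and 6.96, 4.4 and 5.27 FPKM at F3, at least 49.1-fold higher at F3 than at F1.

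The CSL proteins had a smaller share of lower and a larger share of higher calls than the other wall genes. Their 49 clusters came from only 14 numbers, so they are not 49 independent genes. Of 49 members, 15 rose and 5 fell at F2 against F1 (median log2 0.62, against 0.17 for all clusters), 11 rose and 23 fell at F3 against F2 (median −1.11, against −0.37), and 14 rose and 16 fell at F3 against F1 (median −0.42, against 0.00). The shares were 30.6% higher and 10.2% lower at F2 against F1 (22.0% and 18.8% of all clusters), 22.4% and 46.9% at F3 against F2 (29.5% and 35.8%), and 28.6% and 32.7% at F3 against F1, near the 35.0% and 34.7% of all clusters. The count of 15 was 9 under RLE scaling, 8 with limma on log2(FPKM + 1) and 8 when clusters of one number were summed, where 10 fell. The name was less well supported than in other families, since 32 of the 49 carried a cellulose synthase domain and 16 carried no domain. Of these 32, 10 rose and 4 fell at F2 against F1, 8 rose and 13 fell at F3 against F2, and 10 rose and 10 fell at F3 against F1. Their sum was 502 to 538 FPKM at F1 and 523 to 549 at F2, so these libraries overlapped. The 17 without that domain summed to 289 to 372 FPKM at F1 and 400 to 464 at F2. Over all 49, the stage of the highest mean was F1 for 9, F2 for 23 and F3 for 17. Without the CSL proteins, 115 members remained, of which 7 rose and 68 fell at F2 against F1, 13 rose and 67 fell at F3 against F2, and 9 rose and 87 fell at F3 against F1. Of the 115, 59.1%, 58.3% and 75.7% fell, against 18.8%, 35.8% and 34.7% of all clusters.

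The clades differed in level and course. The 25 members named CSLE, a clade with no settled product, summed to 549 ± 20.8 FPKM at F1, 459.7 ± 13.3 FPKM at F2 and 466 ± 30.2 FPKM at F3. The 12 named CSLG, a clade that includes enzymes adding glucuronic acid to triterpenoid saponins in legumes and spinach, summed to 138 ± 19.1 FPKM at F1, 239.8 ± 4.74 FPKM at F2 and 111 ± 8.17 FPKM at F3. The 8 named CSLH, which make mixed-linkage glucan in grasses, summed to 67.6 ± 8.39 FPKM at F1, 106 ± 11.6 FPKM at F2 and 24.00 ± 5.16 FPKM at F3, and the 3 named CSLB to 106 ± 16.5 FPKM at F1, 165 ± 18.9 FPKM at F2 and 54.8 ± 12.3 FPKM at F3. CSLG, CSLH and CSLB were thus highest at F2, while the F2 and F3 libraries of CSLE overlapped in their sum. All 8 CSLH clusters shared the number Cluster-47992, and the 12 CSLG clusters came from Cluster-48502 and Cluster-48635 alone.

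The CSL members with the highest FPKM were short fragments, and their counts were low. Cluster-35101.6, named CSLE6 and 215 bases long, had 181, 149 and 172 FPKM at F1, 161, 144 and 172 FPKM at F2 and 76.7, 65.5 and 113 FPKM at F3 from 103 counts at F1, 114 at F2 and 57 at F3. It was lower at F3 than at F2 (log2 −1.11 ± 0.29), a call lost under RLE scaling (log2 −0.93), DESeq2 (−0.93), limma, a fit of the F2 and F3 libraries alone (−0.96) and without F2 replicate 1 (−0.99), and when the 7 clusters of its number were summed the log2 fold change was 0.53. Cluster-43587.1, also named CSLE6, had 86, 104 and 96.6 FPKM at F1, 109, 115 and 107 FPKM at F2 and 49.9, 61.9 and 53.9 FPKM at F3 (log2 −1.16 ± 0.14 at F3 against F2, and −0.99 under RLE scaling). Cluster-35068.0, named CSLB2, had 91.4, 73.4 and 91.3 FPKM at F1, 120.3, 99.2 and 139 FPKM at F2 and 41.3, 39.7 and 60.1 FPKM at F3 from 207, 327 and 121 counts, and was lower at F3 than at F2 (log2 −1.55 ± 0.23, edgeR, adjusted p = 3.30e-04). The CSL sums in FPKM thus rested in part on short clusters of low depth, and the F2 and F1 libraries of Cluster-35101.6 overlapped.

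Some CSL clusters were at or near 0 at F3 while others of the same number stayed. Cluster-47992.28, named CSLH1, had 9.2, 8.65 and 11.8 FPKM at F1, 20.2, 18.1 and 15.9 FPKM at F2 and 0 counts in all F3 libraries, at least 112-fold lower at F3 than at F2. Its step at F2 against F1 (log2 0.93 ± 0.19) did not reach 2-fold, though it did without F1 replicate 3 (1.06) or F2 replicate 3 (1.01). Its number holds 19 clusters, 8 of them members, and others of it carry the name of a proline-rich protein, so the sum over the number mixes unlike names.

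Cluster-35101.10, named CSLE6, had 6.67, 7.07 and 7.47 FPKM at F1, 10.9, 9.93 and 14.6 FPKM at F2 and 0.16, 0 and 0 FPKM at F3, with 3 counts over the F3 libraries, so that F2 exceeded F3 by a ratio of 239 (95% exact interval 81.4 to 1162). Clusters of the same number went the other way, such as Cluster-35101.4 (named after its values were seen), which had 93.7, 95.6 and 96.2 FPKM at F1, 26.01, 24.9 and 25.9 FPKM at F2 and 77.1, 74.5 and 75.8 FPKM at F3, with its lowest level at F2. Among 19 numbers with at least 2 members, which hold 73 members, 8 held members that rose and members that fell in one comparison. In the 88 members that were alone in the table under their number, 6 rose and 53 fell at F2 against F1, 7 rose and 59 fell at F3 against F2, and 6 rose and 70 fell at F3 against F1. Of the 88, 60.2%, 67.0% and 79.5% fell, against 18.8%, 35.8% and 34.7% of all clusters.

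**Figure D5:**
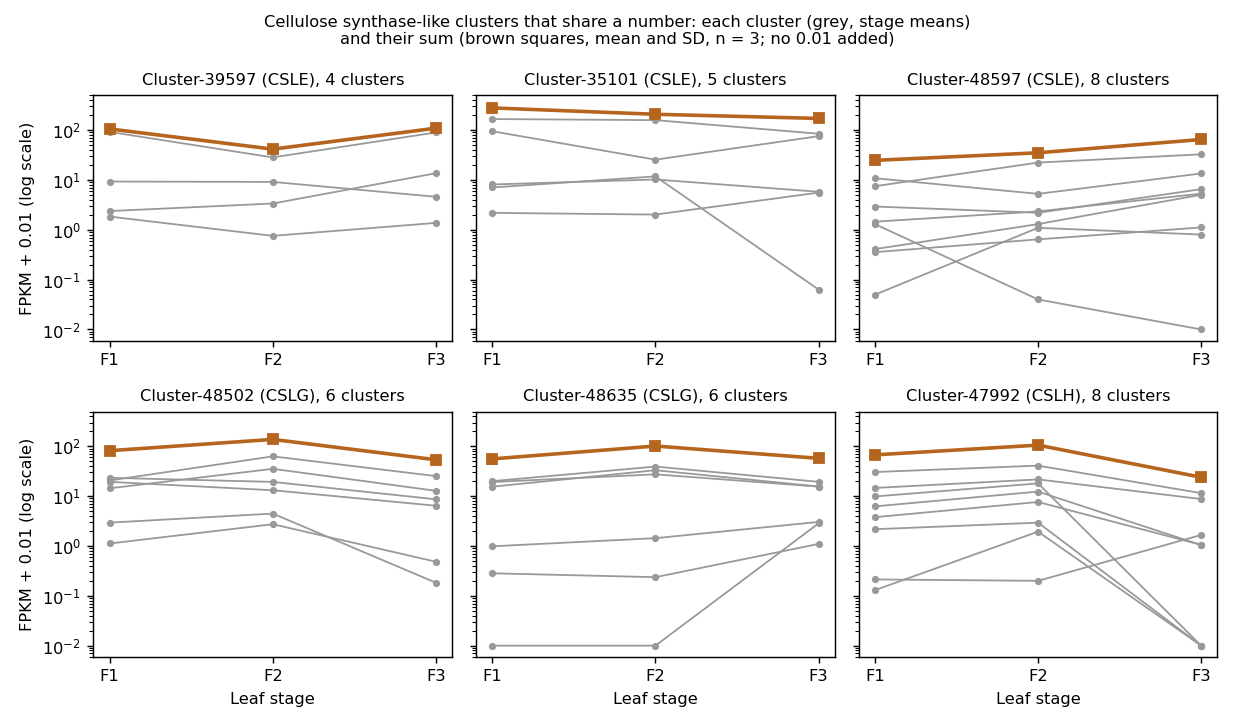
FPKM + 0.01 (log scale) at F1, F2 and F3 of the cellulose synthase-like members of the 6 numbers with at least 4 of them and no other member, each cluster as a grey line of stage means and their sum as brown squares (mean and SD, n = 3). Within a number the grey lines cross, and the sums of Cluster-47992, Cluster-48502 and Cluster-48635 are highest at F2 while that of Cluster-48597 is highest at F3.

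Most other wall genes in the table also passed as lower at F3 against F1. Of 35 clusters listed by names such as extensin, arabinogalactan protein and proline-rich, 26 fell and 5 rose, but 10 of them are receptor-like kinases of the membrane, of which 2 fell and 4 rose. The other 25, structural wall proteins set apart after the values were seen, held 24 that fell and 1 that rose, and their sum was 80.8 to 82.5 FPKM at F3, against 2906 to 3171 at F1. Many of them share the numbers Cluster-46044 and Cluster-47992, the latter also that of the CSLH members, so they are not 25 independent genes. The most abundant, Cluster-47992.14 and Cluster-47992.7, averaged 710 and 673 FPKM at F1. Of 23 for pectin synthesis, 15 fell and 2 rose, of 37 for other pectin and side-chain hydrolases 26 fell and 5 rose, and of 21 for xyloglucan synthesis and trimming 16 fell and 2 rose. Of 22 clusters listed as partners of cellulose synthesis, by names such as COBRA and endoglucanase, 17 fell and 2 rose. Most of these 22 are endoglucanases, a name that need not mark a part in making cellulose. Of 61 for xylan and wall acetylation 37 fell and 6 rose, or 34 and 6 of the 56 left without xyloglucan and pectin xylosyltransferases that the name search had taken in. The lists overlap, with 3 of these xylosyltransferases counted for xyloglucan too and 15 xylan clusters shared with the xylem markers. The share that fell over all clusters in this comparison was 34.7%.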

How the data were processed

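Leaf mRNA was sequenced in 9 libraries, 3 per stage. The authors deposited raw whole-number fragment counts per transcript cluster and library, and FPKM, the counts scaled by the authors for length and library size. The assembler, aligner, counting tool and strand setting are not given in the sources read, so clusters of close relatives may share reads. The labels name mouse genome builds, which are of another species, and no genome was used here. The authors' own DESeq2 fold change and p-value columns were not used, as they hold the results of the study's own comparisons. Counts in the table summed to 8657054 to 14284676 per library, and counts and FPKM together implied 17803778 to 26527420 fragments in all, so a cluster with few counts carries a wide error.

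Counts of all 24385 clusters from the 9 libraries were fitted once with edgeR 4.0.16 in R 4.3.3 (TMM scaling, quasi-likelihood test, stage as the factor, no filter), with Benjamini-Hochberg adjustment over all clusters. The SE of a log2 fold change is its size divided by the square root of edgeR's F statistic, an approximation, since edgeR gives no SE. The edgeR and limma fits were run on simulated counts with known changes, for F2 over F1 only, and the other steps were not tested in this way. Named were the 3 clusters of each family with the highest mean FPKM, and in each comparison the 8 members with the largest fold change among those that passed, with a mean of 10 FPKM in either stage and non-overlapping libraries. The members, the marker lists and the other wall gene lists were chosen with earlier results of these data known. Alternatives were RLE scaling, DESeq2 1.42.0, limma 3.58.1 on log2(FPKM + 1) and log2(FPKM + 0.1), a minimum of 1 FPKM, a fit of the stages compared alone, a replicate block, no fold threshold, FPKM-implied library sizes, summing clusters of one number and leaving out each library.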

Additional observations from a re-analysis of the deposited data

How the results depend on the processing

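The members kept a majority of lower calls in every comparison under every alternative tried. Members higher at F2 than at F1 numbered 14 under RLE scaling and 12 with limma on log2(FPKM + 1), against 22, and members higher at F3 than at F2 numbered 14 when clusters of one number were summed, against 24. RLE scaling put the median of all clusters (log2) at 0.00 in place of 0.17 for F2 over F1 and at −0.19 in place of −0.37 for F3 over F2. With 1 library left out, members higher and lower ranged from 16 to 22 and 68 to 76 at F2 over F1, 20 to 24 and 98 to 106 at F3 over F1, and 20 to 26 and 84 to 90 at F3 over F2. The log2 ratio of the summed member FPKM was −0.90 for F2 over F1, −2.09 for F3 over F1 and −1.19 for F3 over F2. It was −0.80, −1.91 and −1.10 from summed counts scaled by TMM, and −0.95, −1.90 and −0.95 without the 3 most abundant members, both chosen after seeing the data. Reversals were few. For Cluster-35101.6 at F2 over F1 the log2 fold change was −0.041 under RLE scaling, −0.043 with DESeq2 and −0.072 with limma under either pseudocount. With clusters of one number summed it was −1.09 at F2 over F1 and 0.53 at F3 over F2 for Cluster-35101.6 and Cluster-35101.10, −0.94 at F2 over F1 for Cluster-47992.28 and 0.22 at F3 over F2 for Cluster-30398.7, where the summed clusters bear other names or courses. Over 96 fold changes of the 32 named members, 1764 of 1824 alternative values kept their direction and side of the threshold. Of the 81 that passed, 10 lost the call in at least 1 setting with the direction kept. Reversals were counted apart, and 6 of the 96 reversed in at least 1 setting.

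Same-numbered libraries of different stages deviated from their stage means with correlations of −0.04 to 0.02 over 13432 clusters, so no pairing by replicate number was detected. With 3 libraries per stage, this cannot exclude that same-numbered libraries came from the same tree. With the number as a replicate block, 20 members rose and 72 fell at F2 over F1, 24 and 98 at F3 over F1, and 24 and 87 at F3 over F2. Depth limits the clusters at or near 0 counts, whose fold changes are bounds or wide intervals.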
